A study of Homo sapiens with 6 samples.

Results

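Integrins and laminins were described in cultured UMUC3-c31 cells, whose name refers to UMUC3, a human bladder cancer line, after treatment with the synthetic androgen R1881 or with its vehicle. The list named 35 genes, 25 for integrin chains and 10 for laminin chains. A gene was measured where the platform annotation assigned at least 1 probe set to it alone, and it was represented by the set with the highest mean over the 6 arrays. This gave 33 members of the 18129 genes tested, 24 integrin and 9 laminin genes. ITGB6 and LAMA3 had no such set and were not analysed here. The vehicle group, 3 arrays, received ethanol, and the R1881 group, 3 arrays, received 10 nM R1881, each for 24 h. Both groups had been kept in charcoal-stripped serum, which is low in steroid hormones, for 24 h before. The labels do not say how the c31 line was made, and the design text calls the 3 arrays of a group biological replicates.

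Integrins are cell-surface receptors made of an alpha and a beta chain. They bind matrix proteins outside the cell and link through adaptors such as talin, kindlin and paxillin to the actin cytoskeleton. Laminins are secreted trimers of an alpha, a beta and a gamma chain that form the sheet of basement membranes, and several integrins are their receptors. In epithelia such as the urothelium, the pair of ITGA6 and ITGB4 holds basal cells to laminin in hemidesmosomes, while pairs of ITGAV with different beta chains bind vitronectin, fibronectin and other ligands with an Arg-Gly-Asp motif.

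Values were on the log2 scale, so that a difference of 1 is a doubling. Levels of different probe sets depend on probe affinity, and differences in level between genes were not tested. Levels did serve to pick the set of a gene, to average marker lists and to set the background level, which are approximate for that reason. A gene was taken as above background where at least 1 group mean exceeded 4.99, the 90th percentile of 422 olfactory receptor and keratin-associated protein genes. By this proxy 19 of the 33 members lay above background and 14 did not. In the check of the cell type, 5 of 12 epithelial and urothelial markers lay above background (KRT7, KRT8, KRT18, UPK1A and GATA3). So did all 4 mesenchymal markers (VIM, CDH2, ZEB1 and FN1). The uroplakin gene UPK1A (5.03 and 5.08) and GATA3 (4.91 and 5.02, means with vehicle and with R1881) were close to the background level. KRT19, EPCAM, CDH1, PPARG and the uroplakin genes UPK1B, UPK2 and UPK3A lay below it. Of the markers for other cell types, 3 of 6 immune, 2 of 5 endothelial, 1 of 5 fibroblast and 1 of 4 platelet genes lay above background. These were CD3E, CD68 and CD79A, VWF and TEK, PDGFRB, and GP9, while PTPRC, PECAM1 and COL1A1 were among those below it. CD3E (4.83 and 5.02) and VWF (5.07 and 5.13, means with vehicle and with R1881) were also close to the background level. So were PDGFRB (5.15 and 5.29) and CD79A (5.22 and 5.33, in the same order). The means of CD3E and TEK exceeded the background level with R1881 only, and that of TEK barely did so. CD68 lay well above it, at 8.93 with vehicle and 8.69 with R1881. Over the 6 immune markers the array means were 4.65 to 4.71 with vehicle and 4.64 to 4.72 with R1881, and over the 5 endothelial markers 4.20 to 4.35 and 4.49 to 4.63, with TEK as the called gene among them (3.72 ± 0.19 and 5.0 ± 0.26, SD, n = 3). The means were 3.95 to 4.06 and 3.97 to 4.06 for the fibroblast markers, 4.06 to 4.35 and 4.12 to 4.19 for the platelet markers, 5.03 to 5.10 and 5.06 to 5.10 for the epithelial markers, and 10.41 to 10.52 and 10.57 to 10.64 for the mesenchymal markers. Of these 4, FN1 rose by 0.73 on the log2 scale, while VIM, CDH2 and ZEB1 stood at -0.04, -0.04 and -0.10 and did not pass. The part of these cell types in the results was not tested. On the second principal component over all genes vehicle replicate 1 scored 11.04, away from vehicle replicates 2 and 3 at -8.21 and -6.99. R1881 replicate 1 lay on the same side at 5.69, with R1881 replicates 2 and 3 at -0.67 and -0.87.

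Among the members, 2 integrin genes rose with R1881, 1 integrin gene fell and 30 members did not pass an adjusted p of 0.05 (limma, Benjamini-Hochberg over all 18129 genes). The gene that fell was ITGA6, the alpha chain of laminin receptors, and those that rose were ITGAV and ITGB5, which together form a vitronectin receptor. The calls made up 9.09% of the members, beside 2.42% of all genes tested (1.6% higher and 0.816% lower) and 3.86% of the genes above background, and all 3 were among the 19 members above background. The members were chosen with earlier results of these data known, so the share called among them adds no independent support. The median change of the members was 0.01, beside 0.0 for all genes, and 18 of the 33 had a positive sign. In 9 members (27.3%) the 3 arrays of one group did not overlap those of the other, beside 18.5% of all genes. For a single gene an exact two-sided permutation test of 3 against 3 arrays cannot go below p = 0.10, which is the value these 9 members reached.

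**Figure D1:**
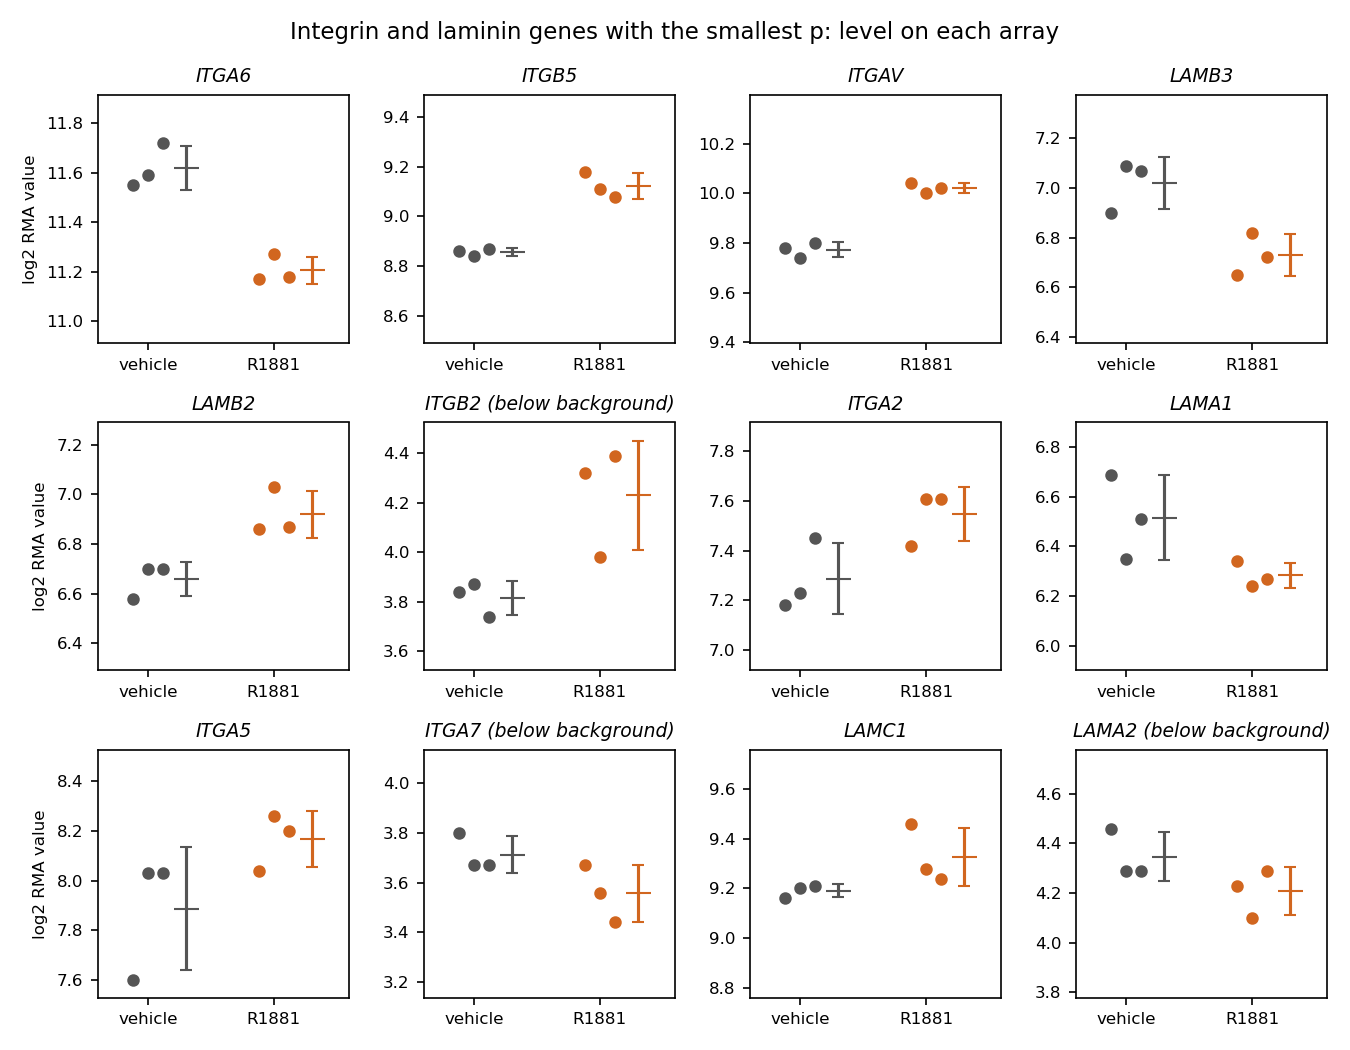
Log2 RMA value (vertical axes, each spanning 1 unit) of the 12 members with the smallest p on the 3 vehicle and 3 R1881 arrays. Points are arrays, and the bar beside them is the mean with its SD. ITGA6 is lower and ITGB5 and ITGAV are higher on every R1881 array than on any vehicle array, while the arrays of ITGA2, ITGA7 and LAMA2 overlap or touch.

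ITGA6 transcript was lower with R1881. The vehicle arrays read 11.55, 11.59 and 11.72 and the R1881 arrays 11.17, 11.27 and 11.18. Each R1881 array thus lay below each vehicle array, and the gap between the groups was wider than the spread within either. The log2 change was -0.41 ± 0.06 (SE, n = 3 per group), or a ratio to vehicle of 0.751 (95% confidence interval 0.681 to 0.828, limma adjusted p = 0.0163). All 3 ITGA6 probe sets were lower, by -0.38 to -0.48, and each passed when every probe set was tested (limma adjusted p of 0.0248, 0.0164 and 0.0442), where 1.61% of 44898 sets with 1 gene did. The call held without vehicle replicate 1 (adjusted p = 0.0405). It was lost without vehicle replicate 2 (0.070), vehicle replicate 3 (0.0558), R1881 replicate 1 (0.0847), R1881 replicate 2 (0.0535) or R1881 replicate 3 (0.0868), with changes of -0.36 to -0.45 throughout.

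The other laminin-binding alpha chains did not pass. ITGA3, whose product pairs with ITGB1, read 9.0, 9.29 and 9.26 with vehicle and 9.05, 9.18 and 9.10 with R1881, with full overlap of the groups. Its change of -0.07 ± 0.08 (SE) had a 95% confidence interval of 0.827 to 1.09-fold, and with 1 array left out it ran from -0.165 (without vehicle replicate 1) to -0.02 (without vehicle replicate 2). ITGA7, the laminin receptor chain of muscle, lay below background on all 6 arrays, at 3.80, 3.67 and 3.67 with vehicle and 3.67, 3.56 and 3.44 with R1881. The beta partners of ITGA6 were also measured. ITGB1, the chain shared by most alpha chains, stood at 13.40, 13.43 and 13.40 with vehicle and at 13.42, 13.43 and 13.40 with R1881, a change of 0.01 ± 0.04 (SE) with an interval of 0.941 to 1.07-fold. That set was near the top of the scale, and its 3 other sets above background stood at -0.06 to 0.04. ITGB4, the hemidesmosome chain, was close to the background level (5.33 ± 0.02 and 5.30 ± 0.03, SD, n = 3) with a difference of -0.04 ± 0.04 (SE). Neither beta chain transcript passed the test.

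The windows around the start sites of the genes that passed were searched for the hexamer AGAACA, a core to which the androgen receptor and related steroid receptors bind, on both strands, and for the inverted repeat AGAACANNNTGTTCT, which contains it. Sequences are RefSeq promoter windows of GRCh38.p14, 300 bases long from 250 before to 50 after the start, and 23 of the 33 members had at least 1. The hexamer was found in 14.8% of all 35116 windows and in 5 of the 30 windows of members (16.7%). The LAMB3 windows among these overlap and hold the same site. The inverted repeat was found in 1 window of all and in none of the members'. ITGA6 had 2 overlapping windows on the plus strand, the first with 2 hexamers, as in 1.81% of all windows for 2 or more, and the second with 1. They are printed 5′ to 3′ with the hexamer in capitals, beside the most GC-rich windows of ITGAV and ITGB5. No window of these 2 genes held the hexamer.
ITGA6, chr2:172427086-172427385, plus strand: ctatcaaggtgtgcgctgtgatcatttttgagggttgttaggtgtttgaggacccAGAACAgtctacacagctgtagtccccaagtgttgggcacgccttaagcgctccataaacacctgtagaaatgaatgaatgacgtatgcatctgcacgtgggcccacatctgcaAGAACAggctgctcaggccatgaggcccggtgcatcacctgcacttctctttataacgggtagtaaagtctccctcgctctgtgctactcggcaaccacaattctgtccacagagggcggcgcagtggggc
ITGA6, chr2:172427336-172427635, plus strand: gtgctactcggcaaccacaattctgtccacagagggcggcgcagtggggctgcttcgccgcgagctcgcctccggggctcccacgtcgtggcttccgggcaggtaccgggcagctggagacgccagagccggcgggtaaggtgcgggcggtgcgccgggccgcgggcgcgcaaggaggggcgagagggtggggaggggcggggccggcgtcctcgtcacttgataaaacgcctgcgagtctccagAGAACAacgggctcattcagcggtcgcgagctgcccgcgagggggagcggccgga
ITGAV, chr2:186589806-186590105, plus strand: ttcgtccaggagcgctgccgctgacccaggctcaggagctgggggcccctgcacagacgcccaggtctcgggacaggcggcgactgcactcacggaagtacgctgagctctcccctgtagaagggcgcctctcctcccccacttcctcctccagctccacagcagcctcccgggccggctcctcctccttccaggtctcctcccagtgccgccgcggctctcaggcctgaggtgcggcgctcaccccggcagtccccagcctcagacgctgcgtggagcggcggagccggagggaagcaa
ITGB5, chr3:124887316-124887615, minus strand: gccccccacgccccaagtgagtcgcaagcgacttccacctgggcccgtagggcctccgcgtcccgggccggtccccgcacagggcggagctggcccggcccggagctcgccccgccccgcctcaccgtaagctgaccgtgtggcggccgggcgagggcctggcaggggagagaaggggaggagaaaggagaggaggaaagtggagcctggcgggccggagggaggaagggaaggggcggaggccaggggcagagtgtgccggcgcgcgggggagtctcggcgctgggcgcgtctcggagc
The hexamers of ITGA6 begin at positions 56 and 170 of its first window and at position 246 of the second, all on the strand of the gene. A match shows only that the letters are there, and receptor binding was not measured on these arrays. GC content was 53% and 72% in the ITGA6 windows, 70.7% in that of ITGAV and 75.7% in that of ITGB5.

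ITGAV and ITGB5 transcripts were higher with R1881. ITGAV, the alpha chain common to vitronectin receptors, read 9.78, 9.74 and 9.80 with vehicle and 10.04, 10.0 and 10.02 with R1881. ITGB5, which pairs with no other alpha chain, read 8.86, 8.84 and 8.87 with vehicle and 9.18, 9.11 and 9.08 with R1881. In both genes the arrays of a group lay close together and the groups stood apart. ITGAV changed by 0.25 ± 0.04 (SE), or 1.19-fold (95% confidence interval 1.11 to 1.27, limma adjusted p = 0.0318). ITGB5 changed by 0.27 ± 0.05 (SE), or 1.20-fold (1.12 to 1.30, adjusted p = 0.0318).

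These calls lay close to the threshold. Without any 1 of the 6 arrays neither passed, with adjusted p of 0.0797 to 0.117 for ITGAV and 0.0731 to 0.121 for ITGB5, while the changes stayed at 0.23 to 0.26 and 0.24 to 0.29. All 5 ITGAV sets were higher, by 0.10 to 0.25, and none passed alone when every probe set was tested. Its brightest set carries an s in its identifier and may hold probes that match other transcripts. On the brightest ITGAV set without such a mark the change was 0.11 with an adjusted p of 0.455, and over the mean of the 5 sets it was 0.19 with an adjusted p of 0.0667. ITGB5 had 1 set. The other beta partners of ITGAV lay below background, with 4.35 and 4.28 for ITGB3 and 2.95 and 3.06 for ITGB8 (means with vehicle and with R1881). ITGB1, the partner that lay well above it, is given above.

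**Figure D2:**
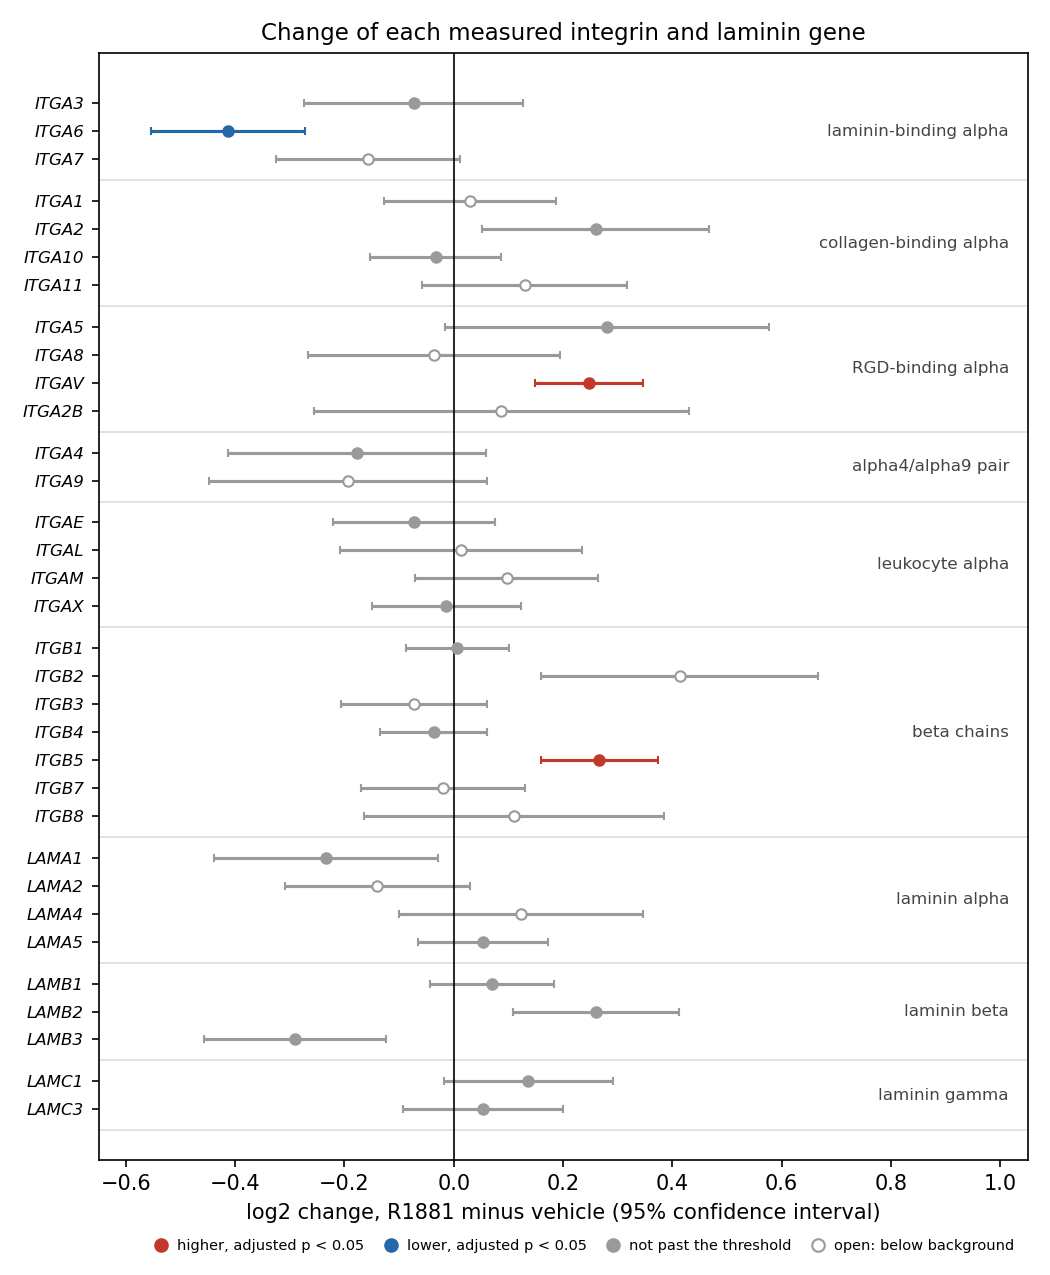
Log2 change, R1881 minus vehicle, of each of the 33 measured members (horizontal axis) with its 95% confidence interval from the limma fit, grouped by role. Open points lay below background in both groups. The intervals of ITGA6 (-0.41), ITGAV (0.25) and ITGB5 (0.27) lie away from 0, and most others include it.

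The remaining receptors for fibronectin and collagen did not pass. ITGA5, the fibronectin receptor chain, read 7.60, 8.03 and 8.03 with vehicle and 8.04, 8.26 and 8.20 with R1881. The groups did not overlap, but by 0.01 only, and vehicle replicate 1 was the low array. The change was 0.28 ± 0.13 (SE, limma adjusted p = 0.375), and it was 0.14 without vehicle replicate 1. All 4 ITGA5 sets were higher, by 0.20 to 0.37. ITGA2, a collagen receptor chain of epithelia and platelets, read 7.18, 7.23 and 7.45 with vehicle and 7.42, 7.61 and 7.61 with R1881, with 1 R1881 array inside the vehicle range. Its change was 0.26 ± 0.09 (SE, adjusted p = 0.249), and its second set stood at 0.21. ITGA10, a collagen receptor chain of cartilage, stood at -0.03 ± 0.05 (SE) near the background level. ITGA4, a receptor chain for fibronectin and VCAM1, stood at -0.18 ± 0.10 (SE). With 1 array left out its difference ran from -0.26 (without R1881 replicate 3) to -0.08 (without R1881 replicate 2), and over the mean of its 5 sets, 4 of them below background, it was -0.05.

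Integrin chains best known from leukocytes and platelets were mostly below background, namely ITGAL, ITGAM, ITGA2B, ITGB2, ITGB3 and ITGB7. ITGB2, the common chain of leukocyte integrins, read 3.84, 3.87 and 3.74 with vehicle and 4.32, 3.98 and 4.39 with R1881. The groups did not overlap, but all 6 values lay below the background level, so no fold is given (limma adjusted p = 0.134, and 0.0238 without R1881 replicate 2). ITGAE, which with ITGB7 binds E-cadherin on epithelial cells, lay well above background, at 10.10, 9.98 and 10.06 with vehicle and 10.07, 9.88 and 9.97 with R1881, a difference of -0.07 ± 0.06 (SE) that ran from -0.12 (without R1881 replicate 1) to -0.03 (without R1881 replicate 2). The transcripts of its partner ITGB7 (4.72 and 4.70) and of its ligand CDH1 (3.17 and 3.04) were below background. ITGAX lay above background on 1 of its 4 sets, with an x in its identifier (6.47 and 6.46), and below it on the other 3. ITGA1, ITGA8, ITGA9, ITGA11 and ITGB8 also lay below background in both groups, and their changes ran from -0.19 to 0.13.

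No laminin gene passed over all genes, and 3 of the 9 had an unadjusted limma p under 0.05, beside 14.3% of all genes. These were LAMB3, LAMB2 and LAMA1. LAMB3, the beta chain of the laminin that anchors epithelial hemidesmosomes, read 6.90, 7.09 and 7.07 with vehicle and 6.65, 6.82 and 6.72 with R1881. LAMB2, a beta chain of mature basement membranes, read 6.58, 6.70 and 6.70 with vehicle and 6.86, 7.03 and 6.87 with R1881. In neither gene did the groups overlap. The change was -0.29 ± 0.07 (SE, adjusted p = 0.110) for LAMB3 and 0.26 ± 0.06 (SE, adjusted p = 0.117) for LAMB2. Both passed when genes below background were left out of the test (adjusted p = 0.0482 and 0.0499), a setting that called 6.85% of its 11049 genes, and LAMB3 passed with a trended and robust prior, which called 4.94% of all genes. The second LAMB3 set did not follow the first, with a change of 0.10 ± 0.09 (SE).

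LAMA1, an alpha chain of early basement membranes, read 6.69, 6.35 and 6.51 with vehicle and 6.34, 6.24 and 6.27 with R1881, which left a gap of 0.01 between the groups. Its change was -0.23 ± 0.09 (SE, limma adjusted p = 0.289), and -0.15 without vehicle replicate 1. LAMC1, the gamma chain of most laminins, read 9.16, 9.20 and 9.21 with vehicle and 9.46, 9.28 and 9.24 with R1881. The groups did not overlap, and R1881 replicate 1 was the high array. The change was 0.14 ± 0.07 (SE, adjusted p = 0.403) and 0.07 without that array, and all 5 LAMC1 sets were higher, by 0.05 to 0.21. LAMB1, the common beta chain, stood at 0.07 ± 0.05 (SE), with an interval of 0.970 to 1.14-fold. LAMA5, an alpha chain of adult epithelial basement membranes, stood at 0.05 ± 0.05 (SE), and LAMC3 by 0.05 ± 0.06 (SE) near the background level. With 1 array left out LAMB1 ran from 0.04 (without vehicle replicate 1) to 0.10 (without vehicle replicate 2) and LAMA5 from 0.03 (without vehicle replicate 3) to 0.09 (without vehicle replicate 2). LAMA2, the alpha chain of muscle basement membranes, lay below background at 4.46, 4.29 and 4.29 with vehicle and 4.23, 4.10 and 4.29 with R1881, and so did LAMA4 (means of 4.72 and 4.84).

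**Figure D3:**
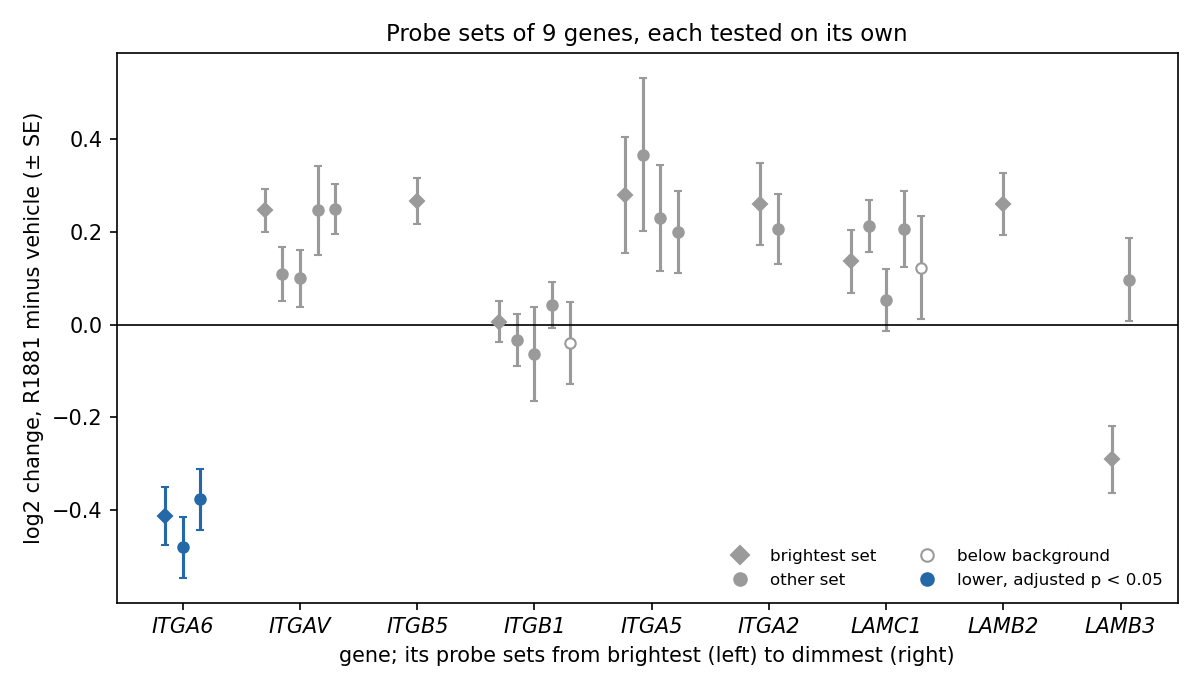
Log2 change, R1881 minus vehicle, with its SE (vertical axis) for every probe set of 9 members, from the brightest set on the left (diamond) to the dimmest. The 3 ITGA6 sets agree at -0.38 to -0.48, the 5 ITGAV sets lie between 0.10 and 0.25, and the 2 LAMB3 sets lie on opposite sides of 0.

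Genes that work with integrins and laminins were followed in 6 lists of 111 measured genes, of which 7 rose, 5 fell and 99 did not pass (limma, adjusted over all genes). The calls made up 10.8% of these genes, 75 of which lay above background, beside 2.42% of all genes and 3.86% of those above background. The lists were written with earlier results of these data known and add no independent support. Of 30 focal adhesion adaptors and kinases, 1 rose and 2 fell, with a list median of 0.04. PXN, the adaptor paxillin, read 11.35, 11.52 and 11.49 with vehicle and 11.10 on each R1881 array, a change of -0.35 ± 0.06 (SE, adjusted p = 0.0226). TGFB1I1, which encodes the paxillin relative Hic-5, went the other way, from 9.19, 9.41 and 9.32 to 9.66, 9.69 and 9.73, a change of 0.39 ± 0.06 (SE, adjusted p = 0.0285). FHL2, a LIM domain protein that binds integrin tails, fell by 0.32 ± 0.04 (SE, adjusted p = 0.00896). The groups did not overlap in any of these genes. FERMT1, the kindlin of epithelia, stood at -0.32 ± 0.07 and the actin linker PARVA at 0.24 ± 0.05 (SE), with adjusted p of 0.0964 and 0.0514.

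Of 27 further integrin ligands, 2 rose, 1 fell and 24 did not pass, and 18 of the 27 lay below background. FN1, the fibronectin gene, rose 1.66-fold (95% confidence interval 1.46 to 1.89). CCN1, a matricellular ligand of ITGAV integrins, read 10.0, 10.04 and 10.06 with vehicle and 10.31, 10.27 and 10.33 with R1881, a change of 0.27 ± 0.04 (SE, adjusted p = 0.0246). TNC, the tenascin C gene, fell to 0.548 times the vehicle level (0.491 to 0.612). VTN, the vitronectin gene, lay below background (4.45 and 4.33).

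Of 18 basement membrane partners of laminins, 3 rose and 1 fell, with a list median of 0.07. SMOC1, a secreted calcium-binding protein of basement membranes, had the largest change of the 6 lists. It read 7.37, 7.48 and 7.50 with vehicle and 8.47, 8.42 and 8.41 with R1881, a rise of 0.98 ± 0.05 (SE) or 1.98-fold (adjusted p = 2.11e-04). The type IV collagen chain gene COL4A5 rose by 0.31 ± 0.05 (SE, adjusted p = 0.0373), and COL4A6 rose at least 1.55-fold from a vehicle mean of 4.90, below background, to 5.63. NTN4, a netrin that binds laminin gamma chains, fell by 0.75 ± 0.07 (SE). The nidogen genes NID1 and NID2, whose products join laminin to collagen IV, lay below background.

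Of 10 measured laminin receptors outside the integrin family and hemidesmosome genes, 1 rose and 1 fell, both syndecans, which are heparan sulphate proteoglycans of the cell surface. SDC1 read 9.97, 10.02 and 10.04 with vehicle and 9.68, 9.71 and 9.71 with R1881. SDC4 read 11.58, 11.56 and 11.59 with vehicle and 11.82, 11.88 and 11.87 with R1881. The groups were apart in both genes, in opposite directions. The change was -0.31 ± 0.04 for SDC1 and 0.28 ± 0.04 for SDC4 (SE, adjusted p = 0.0126 and 0.0187). The hemidesmosome linker genes PLEC and DST stood at 0.07 ± 0.13 and 0.11 ± 0.10 (SE). Among 11 tetraspanins, membrane proteins that gather integrins, and 15 integrin traffic genes none passed by limma. Of them 2 and 1 had an unadjusted limma p under 0.05, beside 14.3% of all genes. By the alternative fits CD82 passed without dim genes and with a trended and robust prior, where CD9 did too, and no traffic gene passed in any. The smallest p in these lists belonged to CD82 (0.29 ± 0.06, SE, adjusted p = 0.0867) and to RAB25, which lay below background.

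Without 1 array at a time, 5 to 7 of the 12 called genes of these lists passed. FHL2, FN1, NTN4, SMOC1 and TNC did so in 6 of 6 leave-outs, with a highest adjusted p of 0.0492 for FHL2. PXN and SDC1 passed only without vehicle replicate 1 (adjusted p = 0.0153 and 0.0279), SDC4 only without R1881 replicate 1 (0.0494) and TGFB1I1 only without vehicle replicate 2 (0.0402). COL4A6 passed without vehicle replicate 2 or R1881 replicate 3, and CCN1 and COL4A5 in none, with adjusted p up to 0.136, 0.0993 and 0.140. The probe set rule also moved some of them. On the brightest PXN set without an s or x mark the change was -0.23 with an adjusted p of 0.392, and over the mean of all its sets -0.17 with 0.243. COL4A6 stood at 0.18 over the mean of its sets (adjusted p = 0.181), TNC by -0.41 and NTN4 by -0.47, both of which still passed. COL4A5 changed by 0.47 on its brightest set without such a mark and passed.

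**Figure D4:**
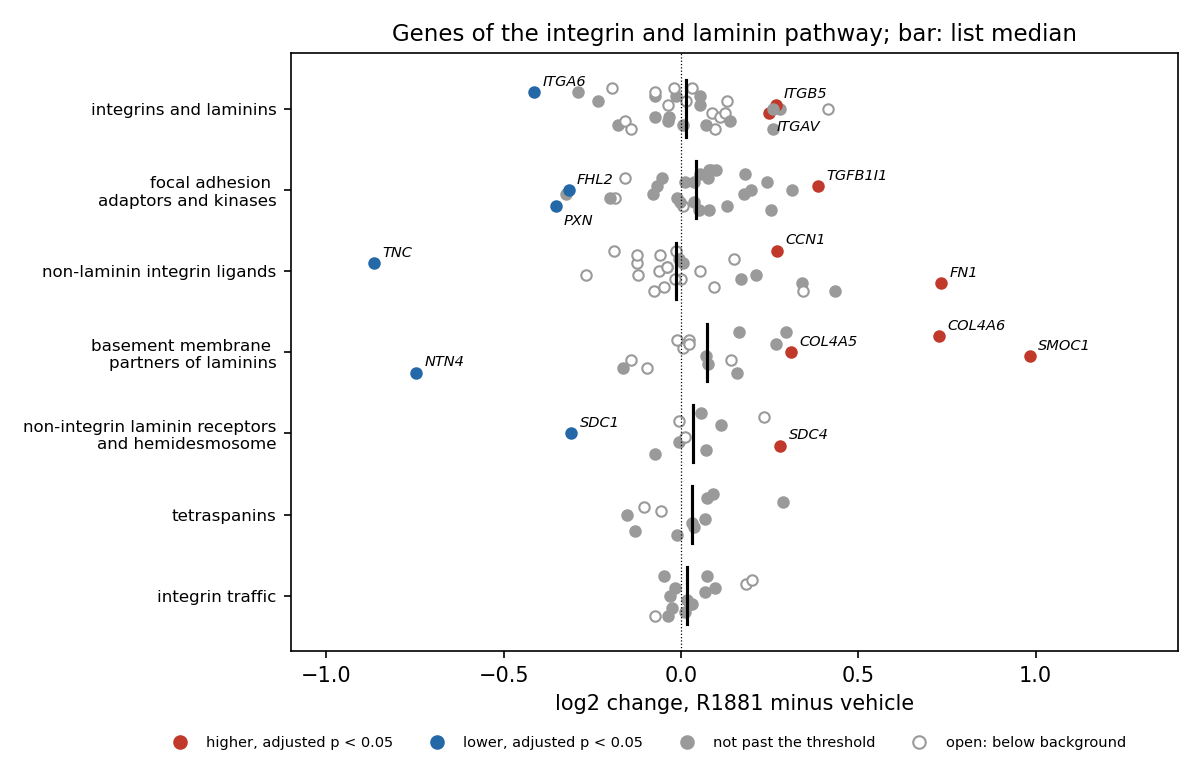
Log2 change, R1881 minus vehicle (horizontal axis), of the members and of the genes of 6 pathway lists, one point per gene, with the list median as a bar. Coloured and named points passed the threshold, and open points lay below background. The medians lie between -0.01 and 0.07, and SMOC1 at 0.98 and TNC at -0.87 are the outermost points.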

How the data were processed

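Affymetrix arrays of 6 samples were used, 3 per group. The authors deposited 1 log2 value per probe set and array, made with RMA per the submitters' processing notes, which normalizes between arrays and would hide a shift of all genes. The sources give no version, filter or detection call. Of 49193 probe sets 44898 had 1 gene symbol and only these were tested, 1 set per gene by the highest mean over the arrays, without a filter. Of the 33 members 7 were on sets with an s or x before "_at", which can match several transcripts. R1881 was compared with vehicle with limma 3.58.1 (lmFit, eBayes) in R 4.3.3, two-sided, adjusted by Benjamini-Hochberg over 18129 genes at 0.05. Changes are R1881 minus vehicle with the moderated SE. Folds against a group below background use the background level. The number of arrays limits the precision.

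Tested on simulated data of this comparison with 18129 genes, the fit called 56% of the changes of 0.3, 98% of those of 0.5 and 100% of those of 1. At most 9.02% of the values of 2 arrays were equal as deposited, to 2 decimals. The members and lists were chosen with earlier results of these data known. Members past the threshold and those with the smallest p up to 12 are given on every array, and of each list the called genes, or else the gene with the smallest p. FERMT1, PARVA, VTN, NID1, NID2, PLEC, DST and CD9 were named after their values were seen. Alternatives were re-centring, another quantile normalization, no dim genes, other priors, array weights, a replicate block, other probe set rules and leaving out each array.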

Additional observations from a re-analysis of the deposited data

How the results depend on the processing

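The calls depended on the fit more than the directions did. The 438 genes called in all became 757 without dim genes, 895 with a trended and robust prior, 222 with the replicate block, 722 probe sets when every set was tested and 209 to 270 without 1 array. The number of member calls went from 3 to 5, 4, 0, 1 and between 0 and 1 in these settings. Without vehicle replicate 1 the member called was ITGA6. Without R1881 replicate 2 it was ITGB2, which lay below background and was not called in the main fit. The 12 calls of the pathway lists became 19, 25, 5, 11 and 5 to 7 (settings added after the data were seen). ITGA6, ITGAV and ITGB5 kept their direction in 45 of 45 alternatives, and 16 of the 19 other members given here were called in none. LAMB3 fell to -0.10 over the mean of its 2 sets. The design text names no pairing of the samples by replicate number, so whether they were paired is not known. Deviations from the group means correlated at 0.092, 0.057 and 0.033 between same-numbered arrays, beside -0.068 to 0.028 between arrays of different number. Each array correlated best with its own number, though vehicle replicate 3 did so by little (0.033, beside 0.028 with R1881 replicate 2). With the replicate number as a block no member passed (limma adjusted p of 0.0683 for ITGA6, 0.113 for ITGAV and 0.113 for ITGB5).

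Uncalled changes near 0 turned sign 11 times. ITGB1 went to -0.0067 after re-centring, to -0.017 over the mean of its sets and to -0.063 on the set without s or x. ITGA3 went to 0.044 over the mean, and ITGB4 to 0.030 over the mean and 0.050 on the set without s or x. Without 1 array ITGAX ranged from -0.060 to 0.015, ITGA10 from -0.060 to 0.0050 and LAMC3 from -0.0033 to 0.087. The cause was not tested.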

Other observations

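ITGB6, the epithelial partner of ITGAV, shares its 2 probe sets on this platform with a non-coding gene, LINC02478, and was therefore left out of the tests. Both sets lay below background, at 3.06 and 2.74 with vehicle and at 3.04 and 2.57 with R1881. Of the 95 probe sets of the 33 members, 3 passed when every set was tested, and all 3 belonged to ITGA6. Among the epithelial markers KRT7 was 1.32-fold higher with R1881 (95% confidence interval 1.20 to 1.46, limma adjusted p = 0.0192) and KRT18 0.774 times the vehicle level (0.718 to 0.834, adjusted p = 0.00830), with n = 3 arrays per group.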
